A study of Mus musculus with 6 samples.

Results

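The transcription factors that give alveolar macrophages (AMs) their identity were examined as a set of 9 genes: Spi1, Cebpa, Cebpb, Pparg, Bhlhe40, Bhlhe41, Egr2, Klf4 and Maf. They were chosen by name, and all 9 were found among the 24341 genes measured. AMs, the resident macrophages of the lung airspaces, were collected by bronchoalveolar lavage from naive female C57BL/6 mice of 6 to 10 weeks that were either CD44+/+ or CD44-/-. CD44 is the receptor for hyaluronan on these cells. Each genotype had 3 samples, pools of 4, 2 and 2 mice by the study's methods, so replicate error is the spread between pools. The methods give the sizes in this order, which would make the samples numbered 1 the pools of 4, but they do not tie it to the replicate numbers. The lavage cells were treated to lyse red blood cells and were not sorted, and the CD44-/- mice lack the gene in every cell type, not in AMs alone. Levels are FPKM, fragment counts scaled by transcript length and by the size of the library.

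PU.1, encoded by Spi1, opens macrophage enhancers and works beside the C/EBP factors encoded by Cebpa and Cebpb. In the newborn lung, GM-CSF and TGFβ from the airspace induce Pparg, a nuclear receptor for lipid ligands that drives AM maturation and surfactant lipid handling. Bhlhe40 and Bhlhe41 encode related repressors that sustain AM proliferation and keep genes of other macrophages silent, Egr2 encodes a zinc finger factor needed for the mature AM programme, and Klf4 encodes a zinc finger factor of macrophages that can take part in their self-renewal. Maf encodes a factor that is high in many other tissue macrophages, where it restrains self-renewal, and low in AMs.

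None of the 9 genes passed the test between genotypes. Bhlhe41 was the only tested member whose CD44+/+ and CD44-/- samples did not overlap, with a lower mean in CD44-/- AMs, and 11.6% of all genes tested did not overlap either, so this count of 1 in 8 is near the background. Bhlhe41, Egr2 and Klf4 were lower, and Spi1 and Cebpb higher, in the CD44-/- sample of every same-numbered pair, where 29.8% of all genes had one direction in all pairs. These members were correlated with each other over the samples, so they are not independent. Cebpb was far higher in the samples numbered 1 of both genotypes than in the other 4.

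The 3 members with lower values in CD44-/- AMs in all pairs, Bhlhe41, Klf4 and Egr2, each had the letters CACGTG, an E-box that BHLHE40 and BHLHE41 are known to bind, in a promoter window. The 250 bases before their annotated start sites are shown with CACGTG in capitals. It was 1 of 7 motifs searched, and it was chosen for display after the matches were seen, so its presence in these 3 genes is a description with no test. Cebpb, which had higher values in all pairs, is shown beside them. Its window held none of the 7 motifs, so its lack of CACGTG is not particular to that motif, and Spi1, the other member higher in all pairs, had no window. They were taken from RefSeq (GRCm38.p6) and read 5′ to 3′ on the strand of the gene.
Bhlhe41 (chr6:145865421-145865670, minus strand): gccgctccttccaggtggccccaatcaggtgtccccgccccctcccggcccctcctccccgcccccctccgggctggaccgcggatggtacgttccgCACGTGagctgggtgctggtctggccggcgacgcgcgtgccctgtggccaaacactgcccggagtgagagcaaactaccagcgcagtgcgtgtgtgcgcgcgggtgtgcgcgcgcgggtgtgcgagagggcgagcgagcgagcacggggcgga
Klf4 (chr4:55532476-55532725, minus strand): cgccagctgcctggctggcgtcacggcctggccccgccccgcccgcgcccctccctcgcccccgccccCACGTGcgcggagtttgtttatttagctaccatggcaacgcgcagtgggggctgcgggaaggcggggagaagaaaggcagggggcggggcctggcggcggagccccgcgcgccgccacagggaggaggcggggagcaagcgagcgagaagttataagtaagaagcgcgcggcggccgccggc
Egr2 (chr10:67535249-67535498, plus strand): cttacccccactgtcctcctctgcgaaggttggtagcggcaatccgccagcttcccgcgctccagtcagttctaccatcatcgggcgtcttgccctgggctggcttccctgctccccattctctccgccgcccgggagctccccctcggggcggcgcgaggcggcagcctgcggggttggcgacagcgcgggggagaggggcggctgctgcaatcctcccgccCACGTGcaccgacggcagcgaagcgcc
Cebpb (chr2:167688665-167688914, plus strand): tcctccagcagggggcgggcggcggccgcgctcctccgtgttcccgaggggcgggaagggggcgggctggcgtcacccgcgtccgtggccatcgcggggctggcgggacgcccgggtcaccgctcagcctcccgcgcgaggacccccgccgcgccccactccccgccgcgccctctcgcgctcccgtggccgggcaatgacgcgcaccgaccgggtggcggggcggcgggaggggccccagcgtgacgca

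CACGTG, which reads the same on both strands, lay at -153 from the start site in Bhlhe41, at -182 in Klf4 and at -27 in Egr2. RefSeq windows from 250 bases before to 50 after a start site were given for 6 of the members, 12 windows in all, and Spi1, Bhlhe40 and Maf had none. CACGTG stood in 3 of the 12 windows, and Egr2 had it in 1 of its 5, some of which overlap. None of the windows of Pparg, Cebpa and Cebpb held it. Among all 32851 windows of 300 bases 7.15% held it, and among the 8341 tested genes with a window 12.3% had it in at least 1 window. The 1029 tested genes with CACGTG had log2 fold changes with a median of 0.01, beside 0.01 for all 8341. A match is a description of the letters in these windows, and binding was not measured here. In the Egr2 window, GTGGGCG, the letters of an EGR site, was found on the opposite strand at -31, where it overlaps CACGTG. In the Bhlhe41 window CACACCC, the letters of a KLF site, was found on the opposite strand at -52 and -38. Matches of other motifs were found in several members. GTGGGCG (7.97% of all windows) was also in windows of Cebpa (-192) and Pparg (-230), and CACACCC (7.95%) in a window of Pparg (-116). GAGGAA, the letters of a PU.1 site (28.3%), was in 4 of the Egr2 windows and in a window of Pparg (-240). The Egr2 windows starting at 67537619, 67537620 and 67537680 overlap, and their GAGGAA matches (-81, -82 and -142) are the same site. The other 3 motifs, searched on both strands as well, had no match in the members' windows. They were TTGCGCA for C/EBP (2.01% of all windows), TGCTGAC for MAF (4.67%), and a pair of AGGTCA with 1 base between them for PPARG with RXR (0.0396%).

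The AMs matched their label by their defining genes. Chil3 had 10300 to 14200 FPKM over the 6 samples, Cd9 3320 to 3570 FPKM and the identifier shared by Ear2 and Ear3 3170 to 3930 FPKM. Transcripts of other cell types were also present. Summed FPKM of neutrophil markers was 33.6 to 79.4 in CD44+/+ and 45.8 to 52.7 in CD44-/- samples (8 of 9 genes in the table, with Camp, Mpo and Ngp at 0 in all samples), and that of 8 lymphocyte markers did not exceed 1.33. The sum of 8 dendritic cell and eosinophil markers was 2.31 to 5.61 in CD44+/+ and 3.60 to 8.57 in CD44-/- samples, with Epx and Prg2 at 0. Markers of alveolar type 2 cells summed to 39.7 to 50.1 and 47.1 to 114 FPKM, those of airway secretory cells to 855 to 1418 and 660 to 1155 FPKM, and those of erythroid cells to 14.7 to 124 and 17.5 to 337 FPKM, in CD44+/+ and CD44-/- samples respectively. Sftpc, which marks type 2 cells, had 15.5, 6.83 and 9.72 FPKM in CD44+/+ and 22.8, 12.4 and 74.2 FPKM in CD44-/- samples. Scgb1a1, which marks club cells, had 277 to 571 FPKM over the 6 samples. Of 8 type 2 markers 5 were tested, with a median log2 fold change of 0.82 (4 positive and 1 negative). The 7 airway secretory markers had a median of -0.34 (0 positive and 7 negative). In limma 0 genes of these lists had an adjusted p under 0.05. The part of these cells in the results that follow was not tested. In bulk samples, fewer cells of a type and less RNA per cell cannot be told apart. Cd44 itself had 534 ± 6.68 FPKM in CD44+/+ and 53.5 ± 1.87 FPKM in CD44-/- AMs (SD, n = 3), a log2 fold change of -3.32 (SE 0.05, adjusted p = 4.19e-09 in limma). The number of reads was not given, so absolute depth is unknown. Depth relative to CD44+/+ replicate 1, read from the steps between the smallest values, was 0.814 to 1.05.

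All 8 factors other than Maf were well expressed. Averaged over the 6 samples, Spi1 had 390 FPKM and ranked 172 of 24340 genes, followed by Cebpb (344 FPKM), Cebpa (198 FPKM), Pparg (146 FPKM), Bhlhe40 (99.9 FPKM), Klf4 (76.2 FPKM), Bhlhe41 (42.2 FPKM) and Egr2 (32.9 FPKM, rank 2504). Maf had 0.172 FPKM and ranked 11810. Spi1 exceeded Cebpb in only 4 of the 6 samples, so these neighbours were not separated. The higher gene exceeded its next neighbour in all 6 samples for every other step of this order, although the ranges over samples overlapped between Cebpb and Cebpa, between Bhlhe40 and Klf4, and between Bhlhe41 and Egr2. The order is one of FPKM, a level per transcript length.

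**Figure D1:**
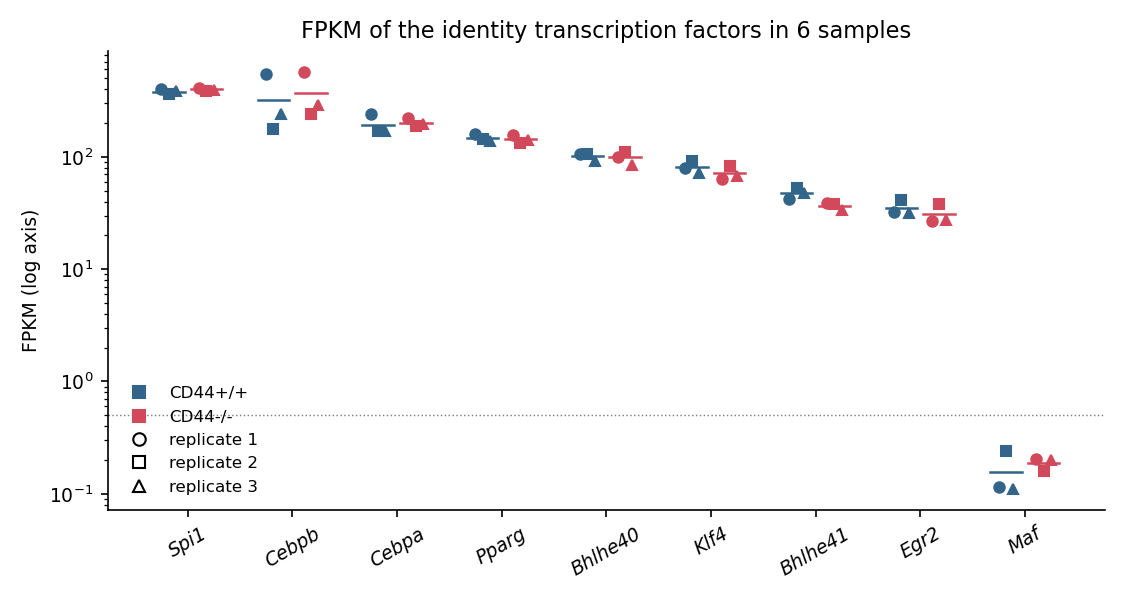
FPKM on a log axis of the 9 identity transcription factors in each of the 6 samples, with CD44+/+ in blue, CD44-/- in red, the marker shape giving the replicate number and the line the mean of a genotype. The dotted line is the mean of 0.5 FPKM that a gene needed to be tested, and only Maf lies below it, while Spi1 leads at 390 FPKM.

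To compare genotypes, limma was fitted to log2(FPKM + 0.1) of the 10800 genes that averaged 0.5 FPKM or more. Its p-values are two-sided and were adjusted over all of them by Benjamini-Hochberg, and log2 fold changes are CD44-/- over CD44+/+. Of the 9 members 8 were tested and Maf was not. An adjusted p under 0.05 was reached by 0 of these 8, where 0.111% of all genes reached it (0.0741% higher and 0.037% lower in CD44-/- AMs). With the replicate number as a block, which compares same-numbered samples with each other, it was again 0 of 8 (0.0833% of all genes). At an unadjusted p under 0.05 there was 1 member, Bhlhe41, where 7.69% of all genes had such a p (4.75% higher and 2.94% lower). This split moved with scaling, being 513 genes higher and 318 lower as deposited, 465 and 440 with median-ratio scaling, and 455 and 446 after quantile normalization. Among the genes with an adjusted p under 0.05 it was 8 and 4 as deposited and 6 and 5 after quantile normalization. With the block there were 4 members, Cebpb with a higher and Bhlhe41, Egr2 and Klf4 with a lower level, where 9.71% of all genes had such a p. The groups did not overlap for 1 of the 8, against 11.6% of all genes. The direction was the same in all 3 same-numbered pairs for 5 of the 8, against 29.8% of all genes. These members were correlated with each other over the 6 samples, so this count and that with the block are not of independent genes. Pearson r on the log2 scale was 0.97 for Egr2 and Klf4, 0.89 for Cebpb and Spi1 and -0.83 for Spi1 and Egr2. The weakest was -0.43, for Cebpb and Bhlhe41. Among the 8 tested members 3 had a positive and 5 a negative log2 fold change, and the median was -0.03, beside 0.01 over all tested genes. For a single value, the smallest two-sided p of an exact permutation test with 3 samples per genotype is 0.1.

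**Figure D2:**
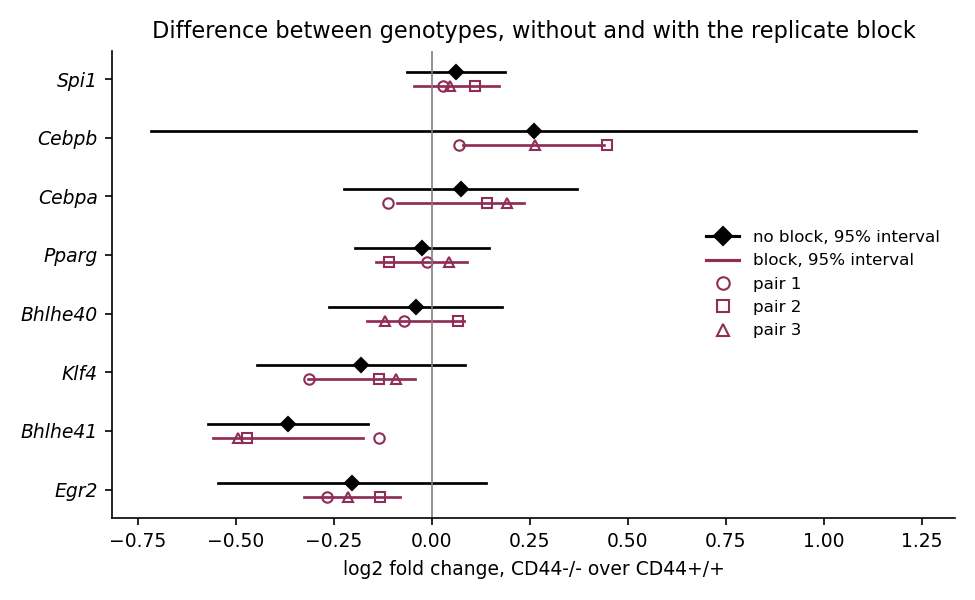
Log2 fold change of CD44-/- over CD44+/+ for the 8 tested members on the x axis, with the 95% interval without a block (black, diamond at the estimate) and with the replicate number as a block (purple). Open symbols are the log2 ratios of the same-numbered pairs. The black interval lies on one side of 0 for Bhlhe41 alone (-0.57 to -0.16), and the widest is that of Cebpb (-0.72 to 1.24).

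Spi1 on chromosome 2 (mm10, 91082390 to 91115756) had 402, 359 and 383 FPKM in CD44+/+ replicates 1, 2 and 3 and 410, 388 and 396 FPKM in CD44-/- replicates 1, 2 and 3. The groups overlapped, and the means were 381 ± 21.6 and 398 ± 11.1 FPKM (SD, n = 3). Its log2 fold change was 0.06 (SE 0.05, 95% interval -0.06 to 0.19, adjusted p = 0.919 in limma), and it was 0.10, 0.02 and 0.04 without CD44+/+ replicate 1, CD44+/+ replicate 2 and CD44-/- replicate 1. Spi1 was also the steadiest member, with a within-group SD of 0.06 on the log2 scale, and 39.9% of the 3815 genes that averaged 20 FPKM or more had less. Cd44 also lies on chromosome 2, 11.7 megabases from Spi1 and 64.8 megabases from Cebpb. The part of this position in their values was not tested.

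Pparg on chromosome 6 (115360951 to 115490399) had 159, 144 and 138 FPKM in CD44+/+ and 158, 134 and 142 FPKM in CD44-/- samples. The direction differed between pairs, and the 95% interval of the log2 fold change of -0.03 ran from -0.20 to 0.15 (adjusted p = 0.985 in limma). In percent, this interval ran from -12.7% to 10.6%.

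Cebpa on chromosome 7 (35119293 to 35121928) had 240, 169 and 172 FPKM in CD44+/+ and 222, 187 and 196 FPKM in CD44-/- samples. The samples numbered 1 were the highest of their genotype, and the groups overlapped. Its log2 fold change was 0.07 (SE 0.13, 95% interval -0.22 to 0.37, adjusted p = 0.971 in limma).

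Cebpb on chromosome 2 (167688915 to 167690418, a single exon) had 547, 176 and 239 FPKM in CD44+/+ and 574, 240 and 287 FPKM in CD44-/- samples. Its level thus differed far more between replicate numbers than between genotypes. The samples numbered 1 averaged 2.42-fold the other 4 on the log2 scale, and only 2 of the 3815 genes had a larger difference of this kind, both microRNA genes with annotated transcripts of 77 and 109 bases. Cebpb had the widest spread of the members, a within-group SD of 0.76 (log2), which exceeded that of 99.8% of these genes. The log2 fold change between genotypes was 0.26 (SE 0.43, 95% interval -0.72 to 1.24, adjusted p = 0.970 in limma). Within pairs Cebpb was higher in the CD44-/- sample by 0.07, 0.45 and 0.26 (log2), and with the block its SE was 0.07 and its adjusted p 0.352.

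Some other transcripts of very high GC content also differed in the samples numbered 1. The Cebpb transcript is 67.2% G and C. Among 3698 genes that averaged 20 FPKM or more and had a transcript of at least 300 bases, 8 had 65% or more, and 4 of these 8 (Cebpb, Scand1, Jund and Ppp1r14b, named after their values were seen) were higher by over 0.5 (log2) in the samples numbered 1, and the median of the 8, Cebpb included, was 0.44. Below 65% there was no such trend, with medians of 0.06 for 873 genes under 45%, 0.04 for 2001 genes from 45 to 55% and 0.04 for 816 genes from 55 to 65%, of which 0, 2 and 0 exceeded 0.5. In the last of these ranges Cebpa, at 62.6% G and C, was higher by 0.36 in these samples, and Spi1, at 58.9%, by 0.09. The summed neutrophil markers, cells in which Cebpb is also expressed, were 33.6 and 45.8 FPKM in the samples numbered 1 and 50.1 to 79.4 FPKM in the other 4. In that list S100a8, S100a9 and Retnlg were the lowest of their genotype in the samples numbered 1 (S100a9 had 0.493 and 1.80 FPKM there and 2.31 to 18.9 FPKM in the other 4), while Cxcr2 was highest of its genotype in the samples numbered 1 (3.97 beside 2.62 and 3.71 FPKM in CD44+/+, and 4.56 beside 3.88 and 4.3 FPKM in CD44-/-). The part of GC content, of neutrophils and of pool size in the Cebpb values was not tested. Without both samples numbered 1 the log2 fold change of Cebpb was 0.36 (adjusted p = 0.381 in limma), a comparison chosen after seeing the data. The ratio of Cebpa to Cebpb within a sample was 0.439, 0.961 and 0.718 in CD44+/+ and 0.387, 0.778 and 0.683 in CD44-/- samples, a difference of -0.19 (log2, exact permutation test, two-sided p = 0.6). It was lower in the CD44-/- sample of all 3 pairs, and the exact two-sided p within pairs was 0.25, the smallest that 3 pairs allow.

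**Figure D3:**
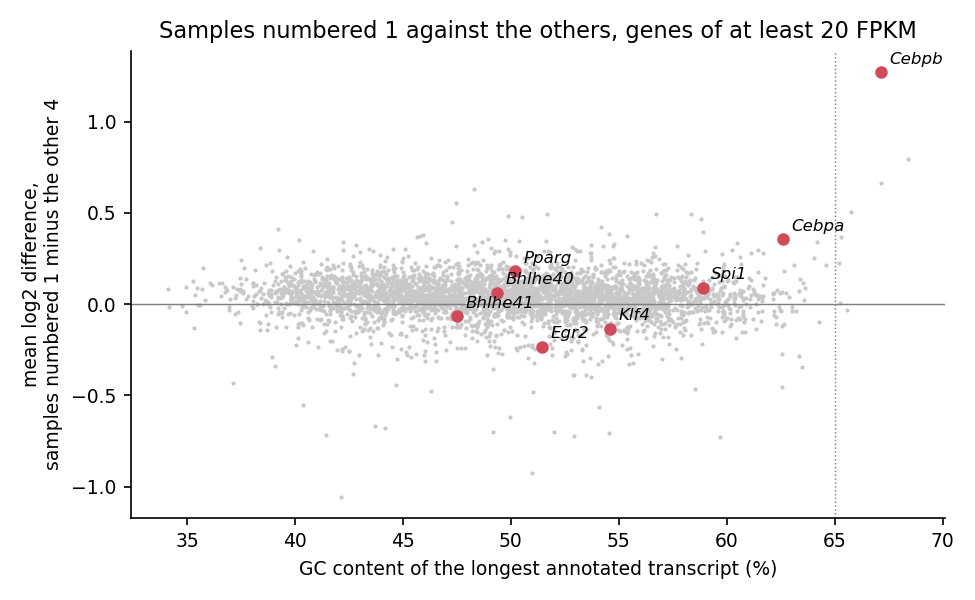
Mean log2 difference of the 2 samples numbered 1 from the other 4 on the y axis against GC content of the longest annotated transcript on the x axis, for 3698 genes averaging 20 FPKM or more and with a transcript of at least 300 bases (grey), with the members in red. The dotted line marks 65%. Cebpb lies at the top right (1.27 at 67.2%), and Egr2 lies lowest of the members (-0.23).

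Bhlhe40 and Bhlhe41 differed in their values. Bhlhe40 on chromosome 6 (108660629 to 108666925) had 105, 106 and 92.5 FPKM in CD44+/+ and 100, 111 and 85.2 FPKM in CD44-/- samples. The groups overlapped, with a log2 fold change of -0.04 (SE 0.10, 95% interval -0.26 to 0.18, adjusted p = 0.977 in limma). Bhlhe41, further along chromosome 6 (145858243 to 145865558, minus strand), had 42.3, 52.9 and 47.4 FPKM in CD44+/+ and 38.6, 38.2 and 33.6 FPKM in CD44-/- samples. Every CD44-/- sample was below every CD44+/+ sample, with means of 47.5 ± 5.31 and 36.8 ± 2.76 FPKM (SD, n = 3). Its log2 fold change was -0.37 (SE 0.09, 95% interval -0.57 to -0.16, unadjusted p = 0.00309 and adjusted p = 0.310 in limma), which is a difference of -22.4% with an interval from -32.6% to -10.6%. Bhlhe41 thus did not pass the test over all genes.

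The level of Bhlhe40 relative to Bhlhe41 within a sample was 2.48, 2.00 and 1.95 in CD44+/+ and 2.59, 2.91 and 2.53 in CD44-/- samples. This ratio does not depend on how a sample was scaled. It was higher in every CD44-/- than in every CD44+/+ sample (2.14 ± 0.291 against 2.68 ± 0.200, SD, n = 3), a difference of 0.32 (log2). An exact two-sided permutation test gave p = 0.1, the smallest that 3 samples against 3 allow.

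Egr2 on chromosome 10 (67535475 to 67542188) had 32.0, 41.6 and 31.9 FPKM in CD44+/+ and 26.6, 38.0 and 27.5 FPKM in CD44-/- samples. The groups overlapped because the samples numbered 2 were the highest of both genotypes. Its log2 fold change was -0.20 (SE 0.15, 95% interval -0.54 to 0.14, adjusted p = 0.870 in limma), and within the pairs Egr2 was lower in the CD44-/- sample by log2 ratios of -0.27, -0.13 and -0.21. Klf4 on chromosome 4 (55527143 to 55532466, minus strand) had 79.2, 91.7 and 71.7 FPKM in CD44+/+ and 63.7, 83.6 and 67.3 FPKM in CD44-/- samples. As for Egr2, the samples numbered 2 were the highest of both genotypes and the groups overlapped. Its log2 fold change was -0.18 (SE 0.12, 95% interval -0.45 to 0.09, adjusted p = 0.841 in limma), with log2 ratios of -0.31, -0.13 and -0.09 within the pairs. With the block the SE was 0.05 for Egr2 and 0.06 for Klf4, and the adjusted p was 0.283 and 0.393. Both thus stayed short of the threshold in either fit. The samples numbered 2 weighed most on both, with -0.08 for Egr2 and -0.09 for Klf4 without CD44+/+ replicate 2, and -0.37 and -0.30 without CD44-/- replicate 2. Without CD44-/- replicate 1 they were -0.11 and -0.10, and Egr2 was -0.13 without CD44-/- replicate 3.

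**Figure D4:**
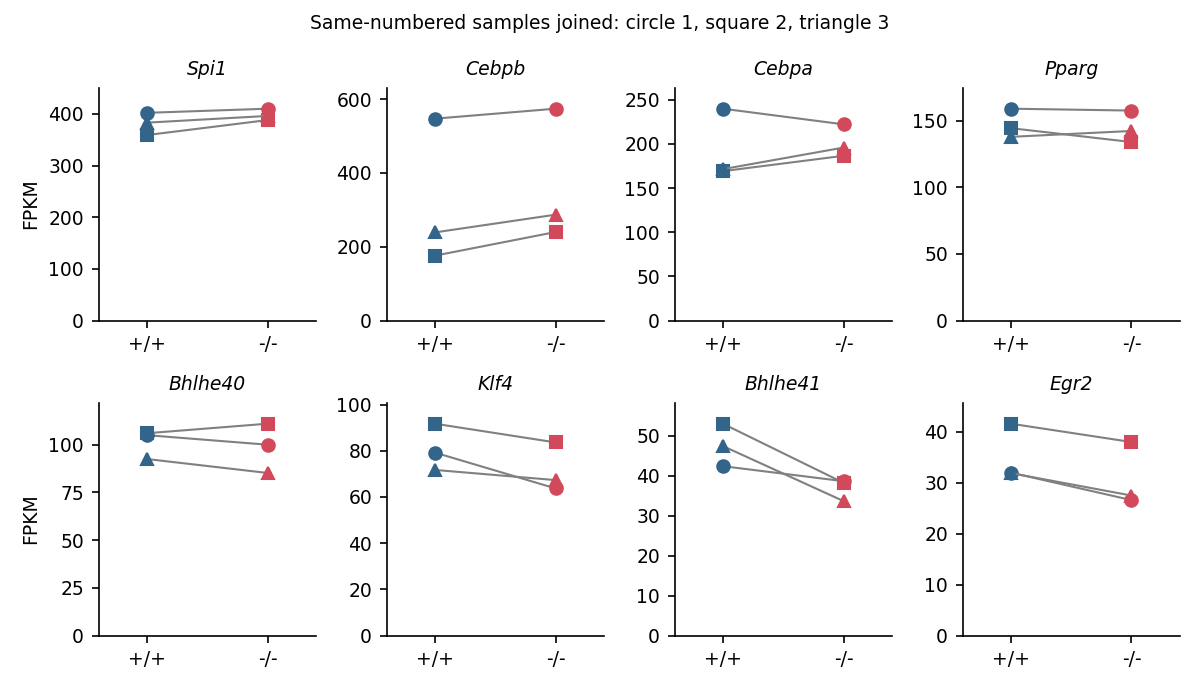
FPKM of the 8 tested members in 8 panels, each with its own axis from 0, where a line joins the CD44+/+ and CD44-/- samples of the same number (circle 1, square 2, triangle 3). The lines of Klf4, Bhlhe41 and Egr2 slope down in all 3 pairs, those of Spi1 and Cebpb slope up in all 3, and the Cebpb circles (547 and 574 FPKM) stand apart.

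Maf on chromosome 8 (115682942 to 115707794, minus strand) had 0.116, 0.238 and 0.111 FPKM in CD44+/+ and 0.206, 0.161 and 0.201 FPKM in CD44-/- samples. These values are near the 0.1 FPKM added before the log, the groups overlapped, and a difference was not detectable at this level.

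As a description over the 6 samples, the gene whose pattern was most like that of a member by Pearson r on the log2(FPKM + 0.1) scale was Pqbp1 for Pparg (r = 0.995), Ubp1 for Cebpa (0.995), Rnf187 for Cebpb (0.997), Stradb for Spi1 (0.992), Bcl2l2 for Bhlhe40 (0.983), Btaf1 for Bhlhe41 (0.992), Lyplal1 for Egr2 (0.990) and Dusp6 for Klf4 (0.997). Such values are common with few samples, since at least 17 tested genes reached an r of 0.95 with each of these members.

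Genes around the 9 factors were counted from the same fit, and 0 genes of any of the lists that follow had an adjusted p under 0.05, with or without the block. Of 19 paralogs of the members 13 were tested, and the groups did not overlap for 2 higher and 2 lower ones, where 6.75% and 4.88% of all genes were higher and lower without overlap. Maff, a small Maf protein without an activation domain, had 26.3 ± 2.65 FPKM in CD44+/+ and 20.5 ± 2.17 FPKM in CD44-/- samples (SD, n = 3, log2 fold change -0.36, adjusted p = 0.369 in limma). Of 22 partners and regulators of the members 20 were tested, and their median was 0.01. Nfil3, a basic leucine zipper factor, had the largest difference at 0.32 (adjusted p = 0.779) with overlapping groups, and this was 0.19 without CD44-/- replicate 1 or without CD44+/+ replicate 2 and 0.53 without CD44-/- replicate 2. The groups did not overlap for 1 higher and 3 lower genes of this list (6.75% and 4.88% of all genes). Atf4, a stress-induced factor that can pair with C/EBP proteins, had 81.3, 91.9 and 82.1 FPKM in CD44+/+ and 70.9, 71.2 and 73.0 FPKM in CD44-/- samples. These groups did not overlap, at a log2 fold change of -0.24 (adjusted p = 0.289 in limma).

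The signals that induce Pparg had small differences. Of 12 genes of GM-CSF and TGFβ signalling, a list with Tgfb1 but without Tgfb2, 11 were tested, with log2 fold changes from -0.05 to 0.07, and the groups overlapped for each of them. Csf2ra, the GM-CSF receptor α chain, had 195 ± 13.9 FPKM in CD44+/+ and 204 ± 4.93 FPKM in CD44-/- samples (SD, n = 3, log2 fold change 0.06, adjusted p = 0.923 in limma). Leaving out CD44+/+ replicates 1, 2 or 3 gave 0.12, 0.03 and 0.04. Smad4, which carries TGFβ signals to the nucleus, had a log2 fold change of 0.07 (adjusted p = 0.956).

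The 16 known PPARG target genes were all tested, 8 with a positive and 8 with a negative log2 fold change and a median of 0.00. On leaving out each sample the median ran from -0.06 (without CD44+/+ replicate 2) to 0.02 (without CD44+/+ replicate 1). In all same-numbered pairs 3 were higher and 6 lower (17.5% and 12.2% of all genes). The groups did not overlap for 1 higher and 4 lower ones (6.75% and 4.88% of all genes). Olr1, a receptor for oxidized low density lipoprotein, had 166, 190 and 186 FPKM in CD44+/+ and 146, 145 and 143 FPKM in CD44-/- samples. The groups did not overlap, and its log2 fold change was -0.32 (adjusted p = 0.157 in limma). Olr1 did not pass with all samples, but did when CD44+/+ replicate 1 was left out (adjusted p = 0.0278). Fabp5, a fatty acid carrier, had a log2 fold change of 0.28 (adjusted p = 0.586) with overlapping groups, and of 0.16 without CD44+/+ replicate 1 and 0.09 without both samples numbered 1.

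Of 29 AM identity genes 26 were tested, and their median was -0.03. The groups did not overlap for 2 higher and 5 lower ones (6.75% and 4.88% of all genes). Olr1 and Lpl were among the latter, and both were also among the lower PPARG target genes. Krt79, a keratin of AMs, had 265, 269 and 314 FPKM in CD44+/+ and 224, 203 and 225 FPKM in CD44-/- samples, without overlap (log2 fold change -0.38, adjusted p = 0.185 in limma). Siglecf and Itgax, which encode the surface markers Siglec F and CD11c, had 258 ± 9.27 and 450 ± 13.4 FPKM in CD44+/+ AMs (SD, n = 3). In CD44-/- AMs they had means of 247 and 477 FPKM.

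Transcription factors tied to other tissue macrophages were also counted. Gata6 of peritoneal macrophages did not exceed 0.0823 FPKM and Sall1 of microglia 0.0122 FPKM. Of 17 such genes 13 were tested, with 3 higher and 1 lower without overlap (6.75% and 4.88% of all genes). Id3, a factor of Kupffer cells, had the largest negative difference, -0.31 (SE 0.36, adjusted p = 0.956 in limma), and its groups overlapped.

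Genes of interstitial and monocyte-derived macrophages had a median log2 fold change of 0.19, beside 0.01 for all genes tested. Without CD44-/- replicate 1 it was 0.31. Of 17 such genes 10 were tested, 8 of these had a positive log2 fold change (6027 of 10800 over all genes), and 4 were higher without overlap and 0 lower (6.75% and 4.88% of all genes). C1qa and C1qc, chains of complement C1q, had means of 1.64 ± 0.503 and 1.32 ± 0.490 FPKM in CD44+/+ samples and 3.03 ± 0.241 and 2.34 ± 0.410 FPKM in CD44-/- samples (SD, n = 3). Their log2 fold changes were 0.89 and 0.83 (adjusted p = 0.295 and 0.471 in limma), and neither passed. Without CD44+/+ replicate 2 that of C1qc was 0.54. The summed FPKM of the 17 genes was 324 to 356 in CD44+/+ and 338 to 342 in CD44-/- samples. Mertk (119 to 140 FPKM), Csf1r (117 to 140 FPKM) and Cd14 (58.5 to 77.6 FPKM) made up most of it. Whether a small number of such cells took part in the C1q values was not tested.

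Of 10 self-renewal genes 9 were tested, Klf4 included, with 3 higher and 1 lower without overlap (6.75% and 4.88% of all genes). Mki67, a marker of cycling cells, had 20.1 ± 1.80 FPKM in CD44+/+ and 26.9 ± 4.16 FPKM in CD44-/- samples (SD, n = 3, log2 fold change 0.41, adjusted p = 0.385 in limma). Ccnd2, a G1 phase cyclin, had 63.9, 71.2 and 79.5 FPKM in CD44+/+ and 60.7, 52.7 and 46.8 FPKM in CD44-/- samples (log2 fold change -0.42, adjusted p = 0.325). Both were without overlap and in opposite directions. Without both samples numbered 1, each of Mki67 and Ccnd2 had an adjusted p of 0.0345.

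**Figure D5:**
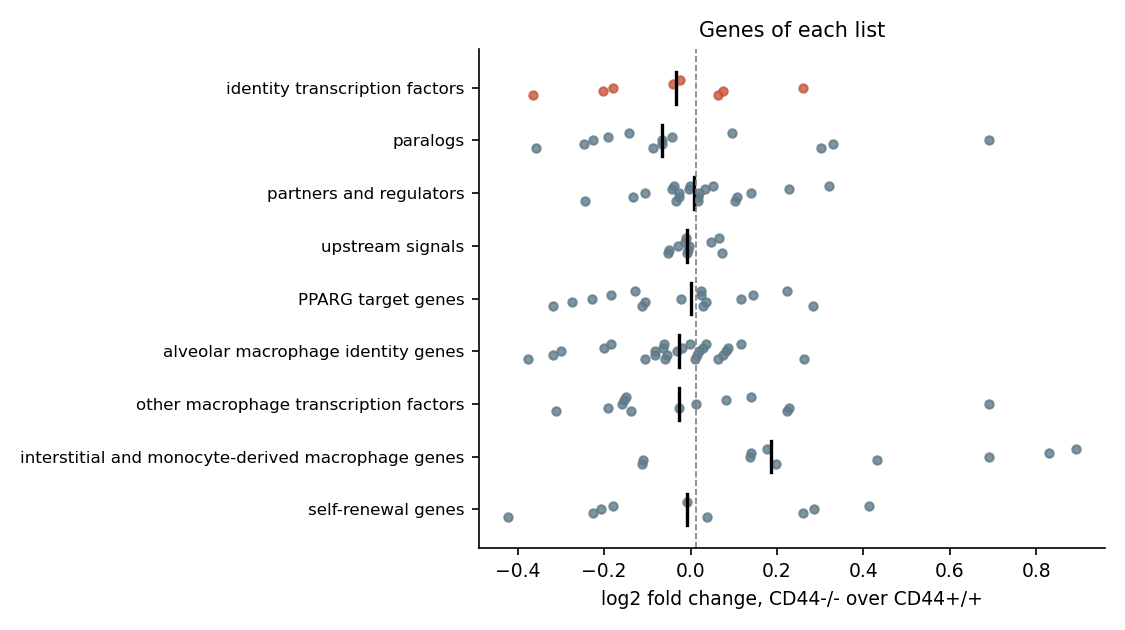
Log2 fold change of CD44-/- over CD44+/+ on the x axis for each tested gene of 9 lists, with the identity transcription factors in orange, the other lists in blue and a black bar at the median of each list. The dashed line is the median of all 10800 tested genes (0.01). Medians lie between -0.07 and 0.01 except that of interstitial and monocyte-derived macrophage genes (0.19).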

How the data were processed

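RNA of BAL cells from CD44+/+ and CD44-/- mice was sequenced by the authors in 3 pooled samples per genotype. Per the labels and the study's methods, paired-end reads of a stranded mRNA library were aligned to mm10 with STAR, and the authors deposited Cufflinks FPKM values. Whether counting used strand, and the annotation, are not given in the sources used here. Values were read by gene identifier, since the deposited gene name and position columns are in another order (0 rows in which they match). Columns of the authors' Cuffdiff comparison (fold changes, p-values, q-values) were not used. Rapgef6, with a missing value, was left out. Groups and replicate numbers came from the labels.

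The 10800 genes averaging 0.5 FPKM or more were fitted on log2(FPKM + 0.1) in R 4.3.3 with limma 3.58.1 (lmFit, then eBayes with a trend). Two-sided p-values were adjusted by Benjamini-Hochberg over these genes. No other scaling was applied in this comparison. Fold changes on this scale understate those of low genes. The script was tested on simulated data. Deviations of same-numbered samples from the group means correlated by 0.212, 0.132 and 0.211 over genes, all above 0.1, so the numbers were taken to pair the samples. This pairing comes from the data, since neither labels nor methods say that same-numbered samples were collected together. Other matchings of the samples were not examined, so these correlations cannot show that the numbering is the true pairing. The counts within pairs and the block fit rest on it. Where pools are not separate litters or days, p-values measure only the spread between them. Alternatives tried were the replicate block, each sample left out in turn, robust eBayes or eBayes with no trend, scaling by median ratios or by quantiles, a filter at 1 FPKM or none, and 1 or 0.01 FPKM added before the log. Leaving out both samples numbered 1 was added after seeing the data.

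Gene positions and GC content are from GENCODE vM21 (GRCm38), and promoter windows from RefSeq (GRCm38.p6). The members, the 14 other gene lists, the tests and the motifs were chosen with earlier results of these data known. Named genes were the members, Cd44, the genes called in a list, the 2 genes of each list with the largest absolute log2 fold change, the 3 highest genes of each marker list, and the genes most correlated with each member. Some of these genes are left out of the text. Further genes named for their values (Siglecf, Itgax, Gata6, Sall1, Cxcr2, Retnlg, Lpl and markers at 0) were chosen after these were seen. The absolute depth is unknown, so no counting interval is given.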

Additional observations from a re-analysis of the deposited data

How the results depend on the processing

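The absence of called members held under all 16 alternatives. The log2 fold change of Bhlhe41 stayed negative, between -0.48 and -0.29, with adjusted p from 0.0691 (without both samples numbered 1) to 1.0 (limma). Spi1 (0.02 to 0.10), Egr2 (-0.37 to -0.08) and Klf4 (-0.30 to -0.09) kept their direction. The direction did not hold on leaving out each sample in turn for Pparg (-0.0889 to 0.0321), Cebpa (-0.0132 to 0.239), Cebpb (-0.116 to 0.732), Bhlhe40 (-0.129 to 0.0612), Smad4 (-0.0181 to 0.137), Id3 (-0.795 to 0.0563) and the ratio of Cebpa to Cebpb (-0.493 to 0.118). The cause was not tested.

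The number of genes called over all genes was 12. It was 6 to 36 on leaving out each sample, with 36 without CD44+/+ replicate 1, 22 without CD44-/- replicate 1, 6 without CD44-/- replicate 2 and 7 without CD44+/+ replicate 2, and 72 without both samples numbered 1. PPARG target genes and AM identity genes had 0 to 1 called gene on leaving out each sample and 1 without both samples numbered 1, in each case Olr1 (0.0305 without both), and self-renewal genes had 2 without both. With the replicate block 9 genes were called, and the block changed no call among the members (0 of 8 in both fits), the listed genes or the named genes. Absolute depth is unknown, and the values of Maf, near the added 0.1 FPKM, could not show a difference.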
